A study of Mus musculus with 3 samples.

Results

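The co-inhibitory and co-stimulatory receptors of the immunoglobulin superfamily described here are Ctla4, Pdcd1, Lag3, Havcr2, Cd160, Btla and Cd96, which are mainly inhibitory, and Cd28, Icos and Cd226, which are co-stimulatory. They are every gene of a list of 10, read by the 16 probe sets that the platform annotation gives to 1 of these symbols and no other. They are 10 of the 18193 genes and 16 of the 34945 probe sets with a single symbol. The RNA came from sorted mouse CD8+ T cells and was hybridised to 3 Affymetrix mouse expression arrays, 1 for each group. The NK1.1+ KO and the NK1.1− KO cells were the CD8+ fractions with and without NK1.1, an activating receptor that marks natural killer (NK) cells, taken at 15 to 17 days of age from Tgfbr2fl/fl x CD4-Cre mice. In these mice Cre under the Cd4 promoter removes the floxed type II receptor for TGF-β from T cells, CD8 cells included because they pass through a stage that uses this promoter. The control cells came from Tgfbr2fl/wt x CD4-Cre littermates, so they carry the same Cre and have 1 floxed copy of the gene. The labels call the control cells NK1.1− in one place and total CD8+ cells in another, and do not say how many mice were pooled.

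T cells need a second signal besides antigen, and the receptors of this family give or withhold it. CD28 and ICOS are related receptors that recruit phosphoinositide 3-kinase and amplify activation. CTLA-4 takes the ligands CD80 and CD86 away from CD28, and PD-1 (Pdcd1), BTLA, LAG-3, TIM-3 (Havcr2) and CD160 damp signalling after activation, so that many of them mark recently or chronically stimulated CD8 cells. CD226 and CD96 compete for ligands of the nectin family, CD226 as an activator and CD96 mostly as an inhibitor. TGF-β is itself a brake on T cell activation. The design asked what distinguishes the receptor-deficient NK1.1+ and NK1.1− CD8 cells from control cells, and the receptors are one group of genes on which the 3 arrays can be read for this.

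A value is a GCRMA probe set intensity on a linear scale. It counts as measured once it reaches 10.3, called the level below, the 95th percentile of 144 probe sets of sensory receptor, keratin-associated and lens crystallin genes. Differences are log2 differences of the brightest probe set of a gene, with values below the level raised to it, and a gene was called at a difference of at least 1 (2-fold). Where one side lay under the level, the fold is only a bound and carries the words "at least". With 1 array a group there is no spread between mice, no test and no p-value. The only spread that could be had is that between probe sets of the same gene, whose pooled SD on the log2 scale was 0.89 where NK1.1+ KO cells were set against control, 0.46 where NK1.1− KO cells were, and 0.80 between the KO fractions.

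Some features of the arrays touch the results. The ratio of 3′ to 5′ Actb probe sets, a sign of RNA quality, stood at 81.9 for the NK1.1+ KO fraction, 12.3 for the NK1.1− KO fraction and 6.02 for the control. For Gapdh the ratios were 10.8, 26.7 and 17.8 in that order. The median difference of 11 housekeeping genes was -0.79 for NK1.1+ KO against control and 0.06 for NK1.1− KO against control, beside -0.19 and 0.01 over all measured genes. All 5 markers of CD8 T cells (Cd8a, Cd8b1, Cd3d, Cd3e, Cd3g) were measured on every array, and the NK1.1+ KO fraction was called lower than the control for 4 of them, with a median of -1.62. Of all genes measured in that comparison, 23.0% were called lower. The count of CD8 markers became 3 after quantile normalization, 1 after subtraction of the housekeeping median and 0 with arrays centred on the housekeeping level. Over all genes, those called lower were then 1887 of 10246, 868 of 10328 and 325 of 15262 in that order. The 7 monocyte and macrophage markers on the array summed to 8326 in NK1.1+ KO cells, 124 in NK1.1− KO cells and 87.5 in control cells, led by Csf1r (7.97 by its brightest probe set and 1.79 by its lowest for NK1.1+ KO against control), and Cd14 and Itgam were below the level on all 3 arrays. In the same order the NK and innate-like T markers summed to 2622, 172 and 76.4, the dendritic cell markers to 1775, 544 and 415, and the B and plasma cell markers to 2426, 129 and 292. Of the last list, only Jchain was called higher in NK1.1+ KO cells and made up 2282 of the sum, while Ms4a1 and Cd79b differed from control by -0.96 and -1.13, and Cd79a and Pax5 were below the level on all 3 arrays. In NK1.1+ KO cells Klre1 (1077) and Tyrobp (1183) made up most of the NK sum. Ncr1 was below the level on all 3 arrays, and Zbtb16 was measured only in the control (18.5). H2-Aa made up 1517 of the dendritic sum in NK1.1+ KO cells. Itgax was highest in NK1.1− KO cells (187, against 104 in NK1.1+ KO), and Flt3 and Siglech were below the level on all 3 arrays. The probe set shared by Klrb1b and Klrb1c, the gene of NK1.1, followed the sort with 1618, 52.7 and 7.09. The brightest Tgfbr2 probe set read 1808, 1271 and 2634, and no label says whether it lies in the deleted part.

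The stretches of 250 bases before the gene start are shown for receptors of each main pattern: Pdcd1 and Havcr2 (highest in NK1.1− KO cells), Ctla4 (low in NK1.1+ KO cells) and Cd96 (low on both KO arrays). RefSeq windows of build GRCm38.p6 matched 6 of the 10 genes. Each is written 5′ to 3′ along the strand of its gene. Capitals mark the core GGAAA of NFAT sites, TGANTCA of AP-1 sites and TGTGGT of RUNX sites, on either strand, so that TTTCC and ACCACA are the same cores read on the other strand.
Pdcd1, chr1:94052554-94052803, minus strand: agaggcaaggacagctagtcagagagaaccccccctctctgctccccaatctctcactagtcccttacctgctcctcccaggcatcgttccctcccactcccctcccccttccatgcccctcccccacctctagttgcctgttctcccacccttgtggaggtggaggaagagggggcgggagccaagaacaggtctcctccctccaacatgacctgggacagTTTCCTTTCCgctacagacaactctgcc
Havcr2, chr11:46454681-46454930, plus strand: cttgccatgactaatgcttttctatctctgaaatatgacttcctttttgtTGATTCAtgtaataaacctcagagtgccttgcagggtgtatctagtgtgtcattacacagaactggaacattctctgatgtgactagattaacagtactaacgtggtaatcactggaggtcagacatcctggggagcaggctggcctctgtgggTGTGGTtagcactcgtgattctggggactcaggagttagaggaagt
Ctla4, chr1:60908775-60909024, plus strand: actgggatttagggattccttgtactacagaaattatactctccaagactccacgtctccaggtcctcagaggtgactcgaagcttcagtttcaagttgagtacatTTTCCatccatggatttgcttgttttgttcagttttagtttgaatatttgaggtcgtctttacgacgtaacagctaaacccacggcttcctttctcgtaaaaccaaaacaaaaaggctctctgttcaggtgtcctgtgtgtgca
Cd96, chr16:46120249-46120498, minus strand: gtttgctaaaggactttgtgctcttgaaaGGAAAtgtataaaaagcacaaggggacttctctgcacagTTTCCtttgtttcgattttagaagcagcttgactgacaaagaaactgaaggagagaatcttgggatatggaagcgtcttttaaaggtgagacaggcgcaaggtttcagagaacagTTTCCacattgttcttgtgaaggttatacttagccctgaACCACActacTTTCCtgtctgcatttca

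The Pdcd1 window holds a pair of NFAT cores side by side, beginning 28 and 23 bases before the gene start. The Ctla4 window holds 1 NFAT core, 144 bases before the start, and the Cd96 window holds 4. The Havcr2 window holds 1 AP-1 match, 200 bases before the start, and 1 RUNX core. Over the 7 windows of the 6 genes (Cd160 has 2), the NFAT core stood in 4, the RUNX core in 5, the SMAD core CAGAC in 3, the STAT motif TTCNNNGAA in 2 and the AP-1 motif in 1. Of 32851 RefSeq windows of this length, 55.6% held the NFAT core, 14.0% the RUNX core, 42.2% the SMAD core, 7.02% the STAT motif and 6.75% the AP-1 motif. No 2 matches of different motifs overlapped in the 7 windows. These are letter matches, not binding sites.

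**Figure D1:**
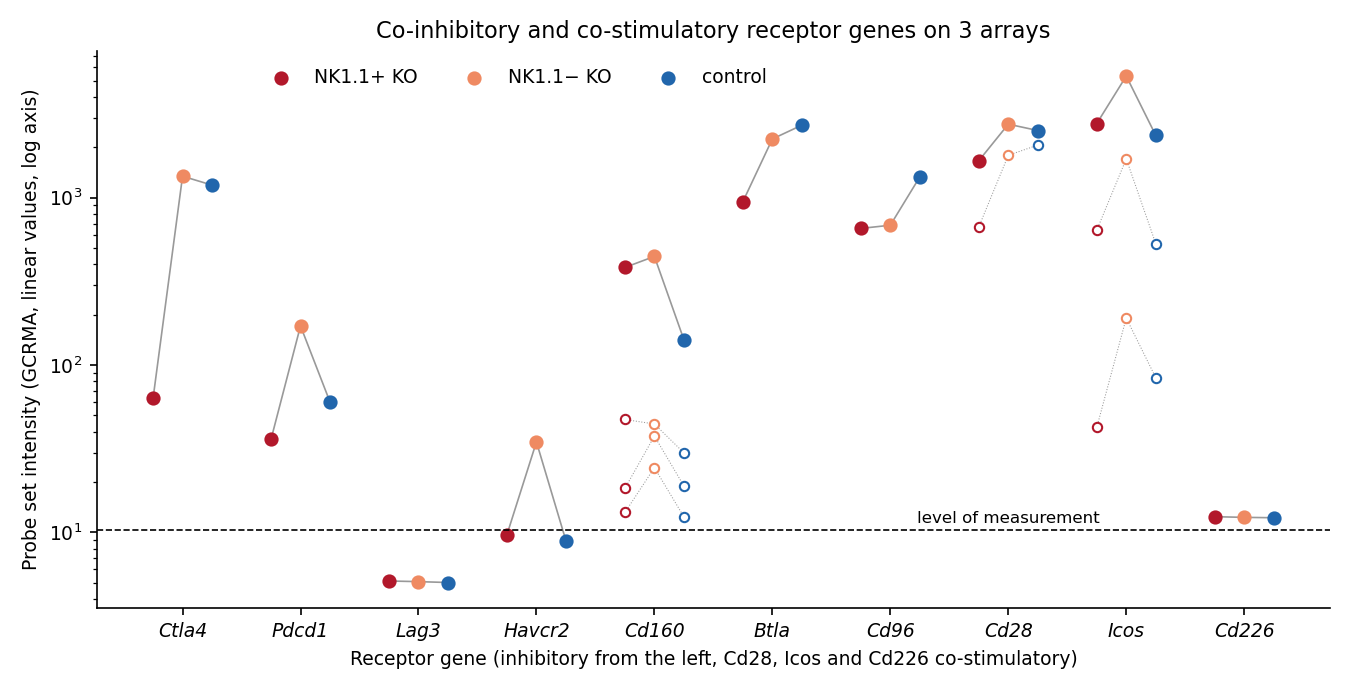
GCRMA intensity (log axis) of the 16 probe sets of the 10 receptor genes on the NK1.1+ KO, NK1.1− KO and control arrays, with the brightest probe set of a gene filled and the others open, and the level of 10.3 dashed. On this deposited scale Pdcd1, Havcr2 and Icos peak on the NK1.1− KO array (for Icos not with housekeeping centring), Ctla4 and Btla are lowest on the NK1.1+ KO array, and Lag3 lies below the level on all 3.

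In NK1.1− KO cells the receptors Pdcd1, Havcr2, Cd160 and Icos were above control, Cd96 was lower by just under 2-fold, and Ctla4, Cd28, Btla and Cd226 differed by at most 1.21-fold. Of the 9 receptors measured on either array, 4 were called higher and 0 lower. Their median difference was 0.18 on the log2 scale. Of all 9818 genes measured there, 8.08% were called higher and 5.58% lower, with a median of 0.01. One of the 4 called receptors, Havcr2, was measured only on the NK1.1− KO array and could not have been called lower. The control array is also used in the comparison of NK1.1+ KO with control cells, so these comparisons are not independent.

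In NK1.1+ KO cells the pattern was different: Ctla4 was far below control, Btla and Cd96 were lower, and Cd160 alone was called higher. Of the 8 receptors measured on either array, 1 was called higher and 3 lower, with a median of -0.67. The split depended on the scaling. When arrays were centred on the housekeeping level, 3 of 9 measured receptors were higher (Cd160, Icos and Cd226) and 1 was lower. Cd226 lay near the level on all 3 arrays. When the housekeeping median was subtracted, 2 were higher and 1 was lower. Of all 10328 genes measured there, 9.79% were called higher and 23.0% lower (1011 and 2377 genes), with a median of -0.19. The numbers higher and lower were 1279 and 1887 of 10246 genes after quantile normalization and 2971 and 868 of the same 10328 with subtraction. With centring, which lifted values from below the level over it, they were 5842 and 325 of 15262 genes. The direction of the split thus turned with either housekeeping scaling, but the centred counts are over a larger set of genes. The housekeeping, CD8 T cell and macrophage values given above moved on the same array, and their part in these differences was not tested. In such RNA, fewer cells that use a gene and less of its RNA per cell cannot be told apart.

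Set directly against each other, NK1.1+ KO cells were lower than NK1.1− KO cells for 4 of 9 measured receptors (Ctla4, Pdcd1, Havcr2 and Btla) and higher for 0, with a median of -0.94. Havcr2 was measured only in NK1.1− KO cells and could not have been called higher. With housekeeping centring Btla (-0.23) and Havcr2 (-0.83) were no longer called, and with subtraction Btla (-0.52) was not. Centring also called Cd226 (1.03), which lay near the level, higher. Of all 10320 genes measured there, 21.3% were called lower and 6.40% higher (2201 and 660 genes), with a median of -0.26. The numbers lower and higher were 1642 and 910 of 10236 genes after quantile normalization and 679 and 2230 of the same 10320 with subtraction. With centring they were 459 and 3616 of 15266, a larger set because values from below the level were lifted over it. At a threshold of 4-fold, Ctla4 alone was lower and 0 receptors were higher for NK1.1+ KO against control, where 6.25% of all measured genes were lower and 3.55% higher. For NK1.1− KO cells 0 receptors passed it (0.805% lower and 2.36% higher over all genes). Between the KO fractions Ctla4 and Pdcd1 were lower and 0 were higher, beside 4.10% lower and 2.22% higher over all genes.

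**Figure D2:**
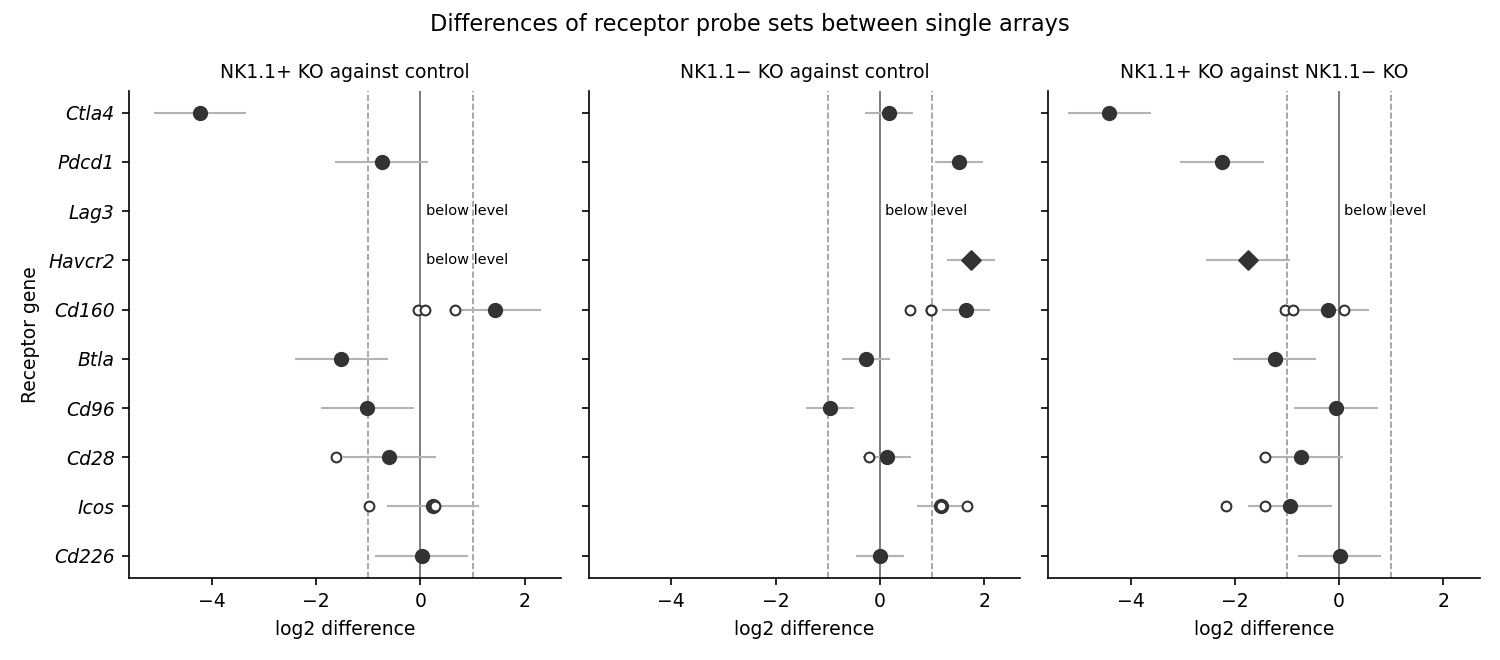
Log2 differences of every receptor probe set in the 3 comparisons, with the brightest probe set filled (a diamond where it is a bound) and the others open. Bars are the pooled SD between probe sets of the same gene over the whole table (0.89, 0.46 and 0.80), not an error between mice, and dashed lines mark 2-fold. Ctla4 lies at -4.23 and -4.41 on the left and right panels and at 0.18 in the middle one.

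Ctla4, the inhibitory receptor that outcompetes CD28 for its ligands, had the widest range of the 10 genes. Its 1 probe set read 63.2 in the NK1.1+ KO fraction, 1344 in the NK1.1− KO fraction and 1189 in the control. The NK1.1+ KO array alone was low. The log2 difference was -4.23 (18.8-fold lower) for NK1.1+ KO against control, and 18 of the 10328 genes had a larger negative difference. Against NK1.1− KO cells it was -4.41 (21.3-fold lower), and 3 of 10320 genes had a larger negative one. NK1.1− KO and control cells differed by 0.18, within the spread between probe sets. Ctla4 remained called lower in both comparisons of the NK1.1+ KO array under every scaling tried, with a range of -4.23 to -2.73 against control.

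Ctla4 is also a defining product of regulatory T cells, and a short list of 4 markers of CD4 and regulatory T cells was read on the same arrays. In the NK1.1+ KO fraction 4 of the 4 markers of CD4 and regulatory T cells were called lower than in the control, with a summed level of 214 against 803. With housekeeping centring 2 of the 4 were. Of all genes measured in that comparison, 23.0% were called lower on the deposited scale, and 325 of 15262 genes with centring. In NK1.1− KO cells 2 of the 4 were called lower, with a summed level of 546 against 803, beside 5.58% of all measured genes. The brightest probe sets of Cd4 (0.14) and Il2ra (-0.29) were not called there. Foxp3, the master transcription factor of regulatory T cells, read 10.1 in the NK1.1+ KO fraction, 33.3 in the NK1.1− KO fraction and 97.1 in the control. Its differences from control were thus at least 9.40-fold lower and 2.92-fold lower. Foxp3 was below the level in NK1.1+ KO cells and could not have been called higher there. Ikzf2, listed with the transcription factors and not among the 4, differed from control by 0.22 in both fractions by its brightest probe set. Its probe sets ranged from -1.15 to 0.22 in NK1.1+ KO and from 0.13 to 0.22 in NK1.1− KO cells. Ctla4 differed from control by 0.18 on the log2 scale in the NK1.1− KO fraction. The part of regulatory T cells in the Ctla4 values was not tested.

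Pdcd1, which encodes PD-1, an inhibitory receptor induced by antigen receptor signalling, was read by 1 probe set. It gave 36.0 in the NK1.1+ KO fraction, 171 in the NK1.1− KO fraction and 60.1 in the control. The NK1.1− KO array stood above both others. The log2 difference was 1.51 (2.85-fold higher) for NK1.1− KO against control, and 4.11% of the measured genes had a higher one. For NK1.1+ KO against control it was -0.74, which is not called, lies within the spread between probe sets and turned to 0.76 with housekeeping centring and 0.05 with subtraction. Between the KO fractions it was -2.25 (4.76-fold lower in NK1.1+ KO), and 2.57% of the measured genes had a lower one.

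Havcr2 encodes TIM-3, an inhibitory receptor of differentiated effector cells. Its probe set read 9.68 in the NK1.1+ KO fraction, 34.7 in the NK1.1− KO fraction and 8.92 in the control. It was measured in NK1.1− KO cells and was below the level on the other arrays, so both differences are bounds. Havcr2 was at least 3.36-fold higher in the NK1.1− KO fraction than in the control and at least 3.36-fold lower in NK1.1+ KO than in NK1.1− KO cells. Both went under 2-fold with log2(value + 32), at 0.71 and -0.68, and when the level was raised to 54.0 the gene was measured on no array. The inhibitory receptor Lag3, which binds MHC class II, gave no measurable signal, with 5.12 in the NK1.1+ KO fraction, 5.07 in the NK1.1− KO fraction and 5.01 in the control by its 1 probe set. A value below the level does not show that the gene was silent.

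Cd160, a receptor of cytotoxic lymphocytes that binds HVEM, was the only one of the 10 called higher in both KO fractions on the deposited scale. With housekeeping centring Icos was too, at 1.74 in NK1.1+ KO and 1.66 in NK1.1− KO cells, and with subtraction at 1.03 and 1.12. The brightest Cd160 probe set read 383 in the NK1.1+ KO fraction, 446 in the NK1.1− KO fraction and 142 in the control. Both KO arrays stood above control, by 1.43 (2.70-fold) and 1.65 (3.15-fold) on the log2 scale. The other 3 probe sets did not reach 2-fold in either comparison. For NK1.1+ KO against control they differed by 0.66, 0.09 and -0.05, and for NK1.1− KO against control by 0.57, 0.98 and 0.99. All 4 were thus above control in NK1.1− KO cells, and 3 of 4 in NK1.1+ KO cells. The call rests on a probe set with a suffix that marks probes shared by several transcripts, and with unsuffixed probe sets alone Cd160 was called in neither fraction, with 0.66 and 0.57.

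Btla, whose product binds the same ligand HVEM and carries inhibitory tyrosine motifs, was read by 1 probe set. It gave 947 in the NK1.1+ KO fraction, 2244 in the NK1.1− KO fraction and 2713 in the control. The NK1.1+ KO array was the low one. The difference was -1.52 (2.87-fold lower) for NK1.1+ KO and -0.27 (1.21-fold lower) for NK1.1− KO cells, both against control. Of all genes measured there, 12.5% had a lower difference than Btla in NK1.1+ KO cells, and with housekeeping centring the Btla difference was -0.02.

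Cd96, encoding an inhibitory receptor for the poliovirus receptor that is found on T and NK cells, was below control in both fractions by nearly the same amount. Its probe set read 655 in the NK1.1+ KO fraction, 685 in the NK1.1− KO fraction and 1331 in the control. The KO arrays differed from each other by 1.05-fold. The differences from control were -1.02 (2.03-fold lower) and -0.96 (1.94-fold lower), which fall on either side of the 2-fold line. In NK1.1− KO cells 6.02% of the measured genes had a lower difference, against 22.3% in NK1.1+ KO cells. For NK1.1+ KO against control the sign turned with housekeeping centring (0.48), while for NK1.1− KO it stayed negative under all alternatives, from -1.02 to -0.47.

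Cd28, the main co-stimulatory receptor of naive T cells, had 2 probe sets. The brighter read 1663 in the NK1.1+ KO fraction, 2750.0 in the NK1.1− KO fraction and 2520.0 in the control. The other read 669 in the NK1.1+ KO fraction, 1793 in the NK1.1− KO fraction and 2062 in the control. Both were lowest on the NK1.1+ KO array and near each other on the other arrays. Against control the differences were -0.60 and -1.62 for NK1.1+ KO, of which only the second passes 2-fold, and 0.13 and -0.20 for NK1.1− KO cells. The brighter one turned to 0.90 for NK1.1+ KO with housekeeping centring.

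Icos, the inducible relative of CD28, was highest in NK1.1− KO cells by each of its 3 probe sets. The brightest read 2775 in the NK1.1+ KO fraction, 5331 in the NK1.1− KO fraction and 2358 in the control. The next read 640 in the NK1.1+ KO fraction, 1707 in the NK1.1− KO fraction and 531 in the control. The dimmest read 42.4 in the NK1.1+ KO fraction, 191 in the NK1.1− KO fraction and 84.0 in the control. All 3 were called higher for NK1.1− KO against control, by 1.18, 1.68 and 1.18 on the log2 scale. For NK1.1+ KO against control they disagreed, with 0.24, 0.27 and -0.99. Between the KO fractions all 3 were lower in NK1.1+ KO cells, by differences of -0.94, -1.42 and -2.17. For the brightest probe set this was 0.07 with housekeeping centring and -0.21 with subtraction, and its difference of NK1.1+ KO from control was 1.74 and 1.03, past 2-fold.

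Cd226, encoding the activating receptor DNAM-1, gave 12.4 in the NK1.1+ KO fraction, 12.3 in the NK1.1− KO fraction and 12.2 in the control by its 1 probe set. The values were level across the arrays and at most 1.20 times the level of measurement, so a difference would have been hard to see.

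Cd28, Ctla4 and Icos lie next to each other on chromosome 1, in this order, with 0 protein-coding genes between them in the RefSeq genes of GRCm38.p6. As deposited, their differences between the KO fractions were unequal, at -0.73 for Cd28, -4.41 for Ctla4 and -0.94 for Icos by the brightest probe sets. By the other probe sets they were -1.42 for Cd28 and -1.42 and -2.17 for Icos, each smaller in size than that of Ctla4. The pooled SD of 0.80 is a spread between probe sets of the same gene and does not measure a contrast between genes.

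**Figure D3:**
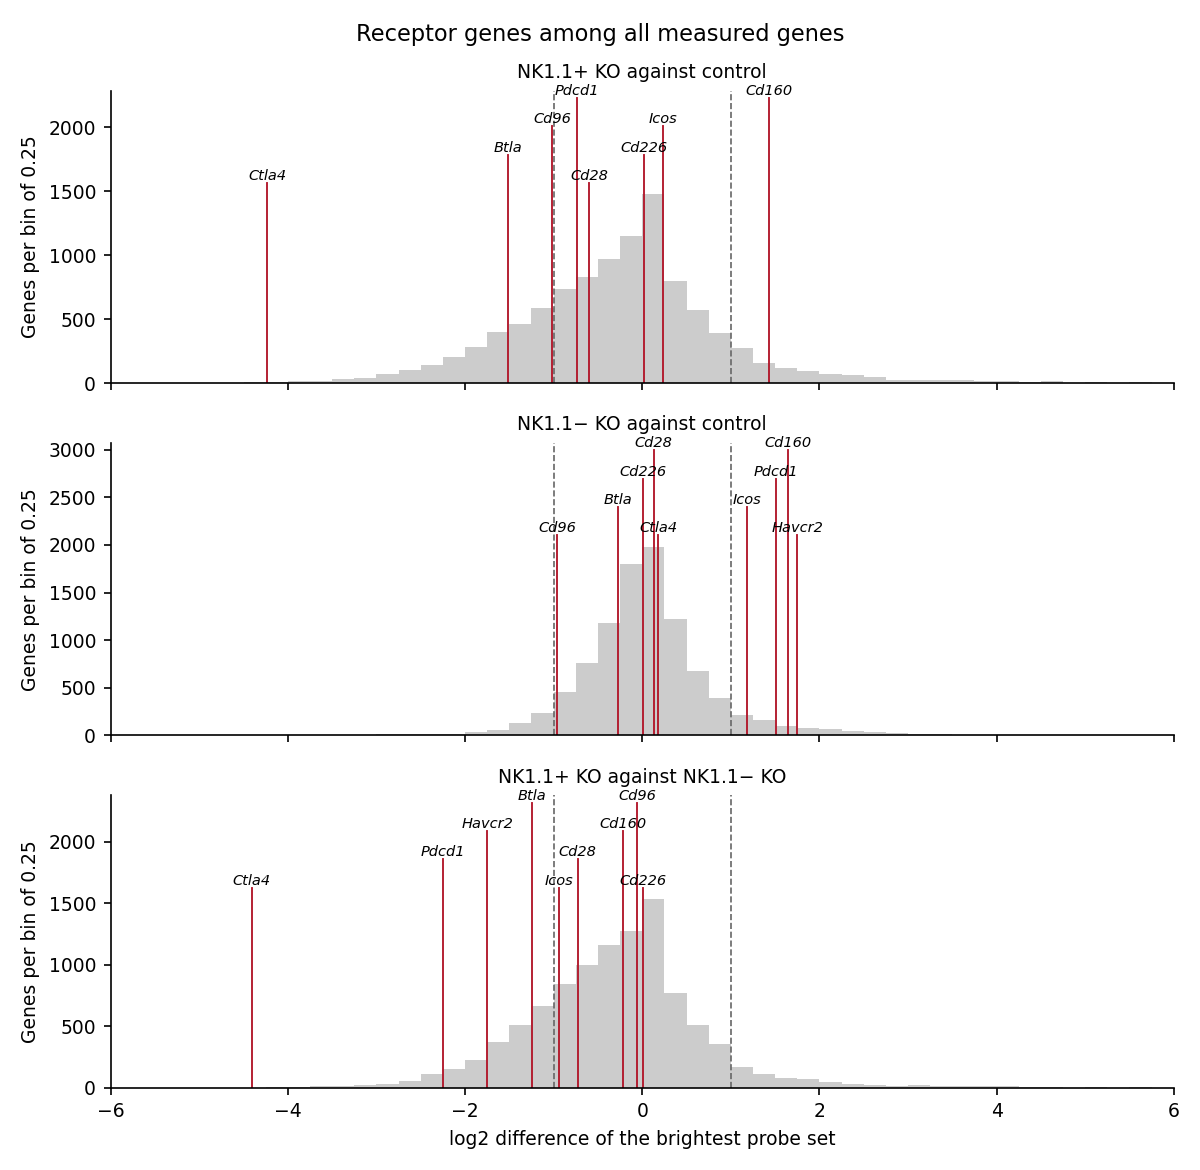
Number of genes in bins of 0.25 of the log2 difference (grey bars) for each comparison, with the receptor genes as red lines and 2-fold as dashed lines; the axis ends at -6 and 6. Ctla4 stands in the lower tail of both comparisons of the NK1.1+ KO array, and Pdcd1, Cd160, Havcr2 and Icos stand right of 2-fold in NK1.1− KO against control.

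For the receptors with the widest ranges, Ctla4, Pdcd1 and Havcr2, the genes most alike were taken from the 8661 genes measured on all 3 arrays, by the Euclidean distance of the 2 log2 differences from control. Nearest to Ctla4 were Timeless (distance 0.451), Eif2b1 (0.577) and Osgep (0.946). Timeless read 20.9 in the NK1.1+ KO fraction, 330.2 in the NK1.1− KO fraction and 288 in the control. Nearest to Pdcd1 were Cenpa (0.006), Rfc4 (0.042) and Pole (0.055), and Cenpa read 108, 515 and 180.1 in the same order. For Havcr2, which was below the level on 2 arrays, the same measure on values raised to the level gave Cks1b, Pif1 and Nsl1. Since its differences are bounds, they have no order and no exact distance. Patterns over 3 single arrays can match for many genes, and the distances describe these arrays only.

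Ligands of the receptors, listed together with the nectin family, were read on the same arrays. Of 15 listed, 14 were on the array and 10 were measured for each comparison with control. In NK1.1+ KO cells 4 were called higher and 2 lower (median 0.65), and in NK1.1− KO cells 2 higher and 0 lower (median -0.06). The shares over all measured genes were 9.79% higher and 23.0% lower in NK1.1+ KO, and 8.08% and 5.58% in NK1.1− KO cells. Cd80, Ceacam1 and Nectin3 passed the level only through the KO cells and could not have been called lower in NK1.1+ KO cells. The same held for Cd80, Ceacam1 and Icosl in NK1.1− KO cells. Tnfrsf14, called lower in NK1.1+ KO cells, passed the level there only through the control and could not have been called higher. Over the 6 ligands measured in both NK1.1+ KO and control cells the median was 0.17, and over the 7 measured in both NK1.1− KO and control cells it was -0.35. Lgals9, encoding the TIM-3 ligand galectin-9, read 31.9 in the NK1.1+ KO fraction, 118 in the NK1.1− KO fraction and 224 in the control, 7.04-fold and 1.90-fold below control. Lgals3, encoding galectin-3, a reported LAG-3 ligand, was 7.90-fold and 8.50-fold above control. The other listed genes with large differences, Nectin3 (at least 11.6-fold) and Ceacam1 (at least 7.10-fold), were higher in NK1.1+ KO cells and near or below the level elsewhere. Nectin3 was listed as a nectin, and no receptor of the 10 is named for it here. Nectin3 has 6 probe sets, of which no other gave a measured difference. The Ceacam1 probe sets measured ranged from 2.01 to 2.83 on the log2 scale for NK1.1+ KO against control.

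Other immunoglobulin-family coreceptors were called higher for 2 and lower for 4 of 14 measured genes in NK1.1+ KO cells (median -0.17), and higher for 2 and lower for 2 of 13 in NK1.1− KO cells (median 0.36). Over all measured genes 9.79% were higher and 23.0% lower in NK1.1+ KO cells (median -0.19). In NK1.1− KO cells 8.08% were higher and 5.58% lower (median 0.01). With housekeeping centring 8 of 15 measured coreceptors were higher and 2 lower in NK1.1+ KO cells, beside 5842 higher and 325 lower of 15262 genes. Lair1, an inhibitory collagen receptor of lymphocytes and myeloid cells, read 237 in the NK1.1+ KO fraction, 93.5 in the NK1.1− KO fraction and 20.6 in the control. Its 3 probe sets spread from 0.75 to 3.52 for NK1.1+ KO and from 1.43 to 2.18 for NK1.1− KO against control. Cd244a, encoding the NK receptor 2B4, read 705 in the NK1.1+ KO fraction, 106 in the NK1.1− KO fraction and 48.1 in the control. Its 2 probe sets gave 3.87 and 1.23 for NK1.1+ KO and 1.14 and 0.30 for NK1.1− KO against control, so that the second was not called in NK1.1− KO cells. The inhibitory scavenger-type receptors Cd5 and Cd6, placed in this list as coreceptors though they hold no immunoglobulin domain, were below control in both fractions, by -2.84 and -2.52 in NK1.1+ KO and by -1.21 and -1.13 in NK1.1− KO cells.

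Signalling proteins used by these receptors, such as phosphatases, adaptors and kinases, were called lower for 13 and higher for 1 of 23 measured genes in NK1.1+ KO cells (median -1.16), and lower for 4 and higher for 2 in NK1.1− KO cells (median 0.11). Over all measured genes 23.0% were lower and 9.79% higher in NK1.1+ KO, and 5.58% lower and 8.08% higher in NK1.1− KO cells. For NK1.1+ KO cells the split of the signalling list turned to 7 higher and 2 lower with housekeeping centring (median 0.34). Subtraction gave 4 higher and 5 lower (median -0.37). Over all genes, centring gave 5842 higher and 325 lower of 15262 (median 0.68), and subtraction 2971 and 868 of 10328 (median 0.60). Dgka, a diacylglycerol kinase that limits signalling below the T cell receptor, read 629 in the NK1.1+ KO fraction, 1591 in the NK1.1− KO fraction and 4388 in the control. Grap2, encoding the adaptor GADS, which binds the tail of CD28, was at least 4.98-fold lower in NK1.1+ KO and 2.30-fold lower in NK1.1− KO cells by its brightest probe set. Its 2 probe sets spanned -2.31 to -1.26 in NK1.1+ KO and -1.20 to 0.67 in NK1.1− KO cells. Pik3cd and Vav1 were also lower by their brightest probe sets (-2.63 and -2.38 in NK1.1+ KO), but their probe sets ranged up to 0.46 and 0.78.

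Transcription factors known to act on inhibitory receptors or on effector fate were called higher for 6 and lower for 6 of 21 in NK1.1+ KO cells (median 0.22) and higher for 8 and lower for 5 in NK1.1− KO cells (median 0.30). Over all measured genes 9.79% were higher and 23.0% lower in NK1.1+ KO, and 8.08% higher and 5.58% lower in NK1.1− KO cells. In NK1.1+ KO cells housekeeping centring gave 14 of these factors higher and 2 lower, beside 5842 higher and 325 lower of 15262 genes. Tox2, of the TOX family linked to sustained PD-1 expression, read 1029 in the NK1.1+ KO fraction, 3557 in the NK1.1− KO fraction and 284 in the control. Tox2 was thus above control by 3.63-fold and 12.5-fold and, like Pdcd1, highest in NK1.1− KO cells. That rests on a probe set with the suffix described for Cd160, and the other Tox2 probe set gave no measured difference. Tox itself read 80.9, 101 and 92.9 in the same order. Its brightest probe set differed from control by -0.20 and 0.12, and its probe sets ranged from -1.0 to 0.52 and from -1.0 to 0.49. Tbx21, encoding T-bet, was 8.17-fold and 11.3-fold above control. Id3, a factor of naive and memory precursor cells, read 16.6 in the NK1.1+ KO fraction, 43.4 in the NK1.1− KO fraction and 153 in the control.

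**Figure D4:**
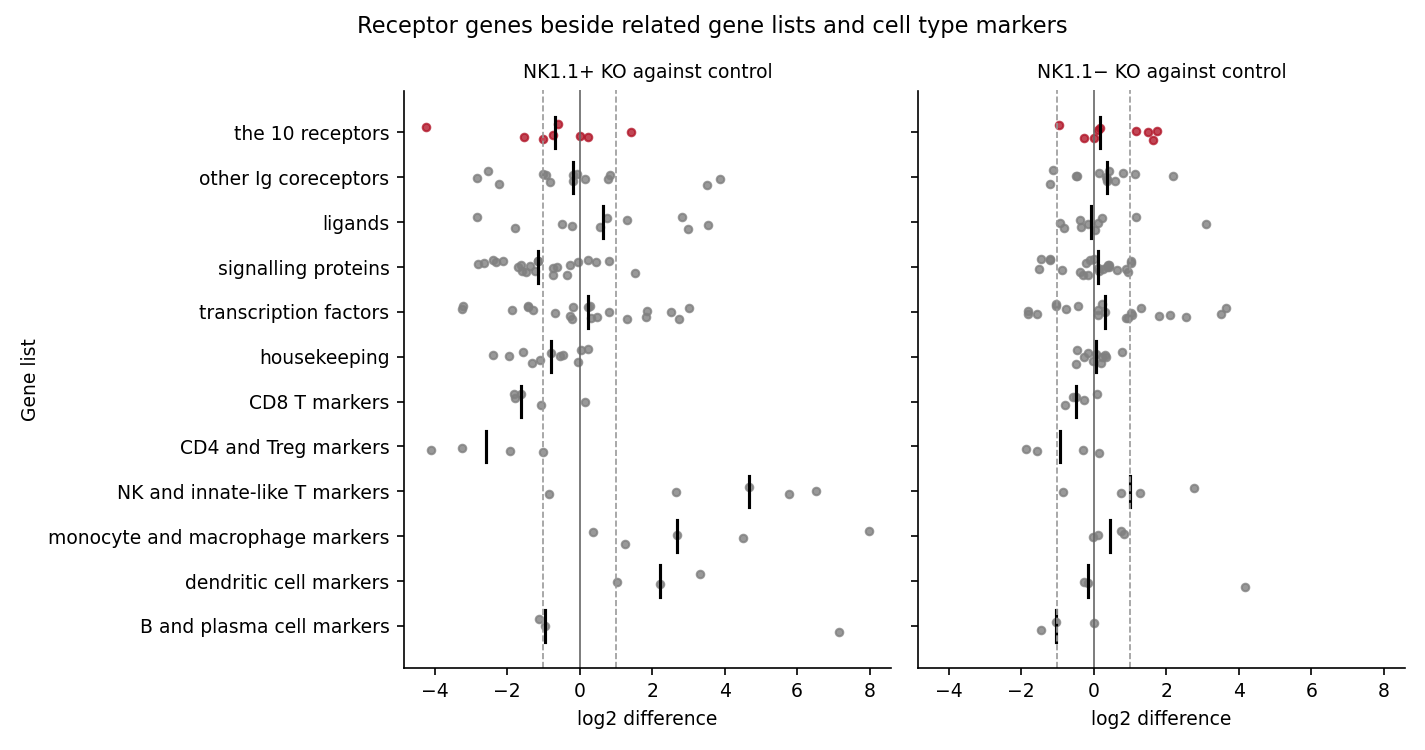
Log2 difference from control of each measured gene (points, spread vertically at random within a row) in the receptor list (red), the related lists and the cell type markers, with list medians as black bars and 2-fold dashed. The receptor median is -0.67 in NK1.1+ KO and 0.18 in NK1.1− KO cells, and among the macrophage markers Csf1r lies at 7.97 in NK1.1+ KO and at 0.84 in NK1.1− KO cells.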

How the data were processed

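The authors deposited 1 table in which each probe set has a linear intensity (2.60 to 55468), and the submitters' processing notes name GCRMA 1.1.3, which corrects background, normalizes and summarises probes. Its settings are not stated in the labels. All 3 columns belonged to a sample. Groups come from the sample titles. GEO's platform annotation gave 1 symbol to 34945 of 45037 non-control probe sets, several to 932 and none to 9160; a gene took its brightest single-symbol probe set. Entrez identifiers of 34741 matched RefSeq genes, and 0 symbols changed. The computation of differences and calls was run on simulated arrays with known differences, which does not test the choice of level or threshold. There is no test, since each group has 1 array, and the precision is limited by how few arrays there are. All 10 members are named, with the 4 genes of each related list that differ most from control and 3 nearest genes for each of 3 members. Members and lists were chosen with earlier results of these data known. Alternatives changed the level, offset, probe set choice, scaling and threshold. Scripts used Python 3.11.15, numpy 2.4.6 and pandas 2.3.3.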

Additional observations from a re-analysis of the deposited data

Results flagged for a closer look

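Ctla4 and Pdcd1 differed from control in opposite directions in the KO fractions, and their values for the fractions lay at least 2-fold apart. For Ctla4 the log2 difference was -4.23 for NK1.1+ KO and 0.18 for NK1.1− KO cells. For Pdcd1 it was -0.74 for NK1.1+ KO and 1.51 for NK1.1− KO cells. With 1 array a group the difference between the fractions was not tested, both comparisons share the control array, and neither gene passed 2-fold in both directions. The 0.18 of Ctla4 and the -0.74 of Pdcd1 lie within the spread between probe sets (0.46 and 0.89), and that of Pdcd1 turned to 0.76 with housekeeping centring and 0.05 with subtraction, so opposite directions are not established for either gene.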

How the results depend on the processing

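Of 203 recomputed differences of receptor genes under 8 alternatives (the 4-fold threshold changes counts only), 174 moved by less than the spread between probe sets and 28 by more. In 1 case a called difference turned, that of Cd96 in NK1.1+ KO against control, to 0.48 with arrays centred on the median housekeeping level. In that comparison the 1 receptor called higher became 0 when probe sets were averaged and 0 with unsuffixed probe sets. Centring on the housekeeping level gave 3 called higher and 1 lower there, and 1 higher and 2 lower for NK1.1+ KO against NK1.1− KO. It also lifted values below the level, so that 15262 genes counted as measured, and the median over all genes moved to 0.68. Subtracting the median difference of the housekeeping genes instead, chosen after seeing the data, gave 2 higher and 1 lower for NK1.1+ KO against control, with the all-gene median at 0.60, and 1 lower (Cd96, -1.02) for NK1.1− KO against control. With a 4-fold threshold, 0 were higher and 1 lower for NK1.1+ KO against control, 0 higher for NK1.1− KO against control and 2 lower between the fractions. The other counts of receptors stayed within 1.5 times. Over all genes, calls ranged from 367 to 5842 higher and 325 to 2475 lower for NK1.1+ KO against control (1011 and 2377 as reported), from 232 to 1657 and 79 to 610 for NK1.1− KO (793 and 548), and from 229 to 3616 and 423 to 2317 between the fractions (660 and 2201). The widest values came from housekeeping centring (5842 higher and 325 lower), beside 2971 higher and 868 lower after subtraction. Leaving out a replicate was not possible. No paired analysis was possible because each group has 1 array. Values near 10.3, such as those of Cd226 and Havcr2, are limited by signal over background.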
